A study of Mus musculus with 6 samples.

Results

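The 9 genes described here encode enzymes that build heme, together with TMEM14C, the inner mitochondrial membrane protein that moves a late intermediate to where it is used. They were chosen by gene symbol (Alas1, Alas2, Alad, Uros, Urod, Cpox, Tmem14c, Ppox and Fech), and each was covered by 1 probe set of its own among the 19938 named genes measured. Gene expression was measured in total RNA of whole fetal livers at E14.5, in 3 Tmod3-/- embryos (Tmod3 KO), labelled with a small liver and anemia, and 3 Tmod3+/+ embryos (WT), labelled normal. All were of strain C57BL/6J, and each liver was that of an independent embryo and went on 1 Affymetrix MoGene-1_0-st-v1 array. Tmod3 encodes tropomodulin 3, an actin filament capping protein of pointed ends. The labels do not describe the knockout allele or its reach in the embryo.

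Heme is the iron-holding ring of hemoglobin, and at this age red cells are formed mainly in the fetal liver, whose erythroblasts make heme in bulk. The pathway starts in mitochondria, where ALAS joins glycine and succinyl-CoA, continues through the cytosol, and returns to mitochondria for its last steps, ending with ferrochelatase, which inserts iron into protoporphyrin. The first step has a ubiquitous enzyme (ALAS1) and an erythroid enzyme (ALAS2), and ALAS2 is held as the main control point of heme synthesis in red cell precursors, at the level of transcription by GATA1 and of translation by iron.

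Sequence upstream of 3 of the genes is shown because Alas2 and Tmem14c are among those with separate groups and Cpox, an enzyme between them in the pathway, is not. Each sequence is the 250 bases before the annotated start (RefSeq, GRCm38.p6), 5′ to 3′ on the gene's strand. Capitals mark the letters GATAA, the core that GATA factors bind, and the letters CCACCC, a form of the CACCC box, each searched on both strands.
Alas2, chrX:150547167-150547416, plus strand: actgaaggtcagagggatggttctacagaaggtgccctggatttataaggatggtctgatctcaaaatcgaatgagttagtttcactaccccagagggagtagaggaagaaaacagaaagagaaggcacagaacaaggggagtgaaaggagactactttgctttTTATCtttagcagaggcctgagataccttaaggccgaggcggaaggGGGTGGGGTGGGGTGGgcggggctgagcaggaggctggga
Tmem14c, chr13:41016000-41016249, plus strand: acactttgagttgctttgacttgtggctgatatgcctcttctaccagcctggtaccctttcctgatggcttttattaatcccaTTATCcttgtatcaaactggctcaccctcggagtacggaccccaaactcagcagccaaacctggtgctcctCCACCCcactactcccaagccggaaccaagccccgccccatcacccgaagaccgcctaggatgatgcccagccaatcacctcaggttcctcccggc
Cpox, chr16:58669958-58670207, plus strand: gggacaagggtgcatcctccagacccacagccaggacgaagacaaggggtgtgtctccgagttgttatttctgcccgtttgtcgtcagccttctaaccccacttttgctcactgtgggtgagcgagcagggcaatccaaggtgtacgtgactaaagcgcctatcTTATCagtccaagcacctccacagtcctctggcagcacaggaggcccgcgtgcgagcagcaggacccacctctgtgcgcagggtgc
The Alas2 window held 1 GATAA match, 86 to 82 bases before the start, and 3 CCACCC matches in a row, each sharing 1 base with the next, between 40 and 25 bases before it. The Tmem14c window held 1 GATAA match, 167 to 163 bases before the start, and 1 CCACCC match, 96 to 91 bases before it. The Cpox window held 1 GATAA match, 86 to 82 bases before the start, and no CCACCC match. Of all 32851 windows of the same length, 22.6% held GATAA and 28.1% held CCACCC. Windows of 8 of the 9 genes were searched, and of these 11 windows 4 held GATAA and 3 held CCACCC. No window of Fech was used, though its groups were separate too. Besides the genes shown, 1 window of Uros held GATAA and 1 of Alas1 held CCACCC, and both genes had overlapping groups. These matches are letters in a window and say nothing of binding.

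Levels are given as deposited, on a scale read as log2, made with RMA, which corrects background, normalizes between arrays and summarises each probe set. A difference of 1 is a factor of 2, and levels of different probe sets are not compared with each other. Array medians lay between 1.36 and 1.43, so a reading near these values is near the floor of the measurement. The upper parts of the arrays were not aligned: the 90th percentile over probe sets was 3.67, 3.82 and 3.68 in Tmod3 KO livers, against 3.68, 4.07 and 4.13 in WT livers, so a quantile step alone does not describe the table. Tmod3 itself read 1.32, 2.36 and 1.30 in Tmod3 KO livers, against 4.49, 4.78 and 4.90 in WT livers, so each array matched its label. The median log2 fold change, Tmod3 KO minus WT, was -0.25 among the 2545 genes with a mean of 3 or more (called well measured below), while over all 19938 genes it was 0.0057. Of the well measured genes 80.6% lay below 0, beside 48.4% of all genes and 8 of the 9 heme genes, so each difference is to be read against that shift.

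Transcripts of the first erythroid enzyme, of the transporter and of the last enzyme were lower in every Tmod3 KO liver than in any WT liver, at 0.611 to 0.648 times the WT level. The log2 fold change was -0.63 for Alas2, -0.69 for Tmem14c and -0.71 for Fech. For the other 6 genes the groups overlapped. None of the 9 passed the threshold of 0.05 after Benjamini-Hochberg adjustment over all genes (limma), which 3 genes (0.015%) did. At an unadjusted p under 0.05, 3 of the 9 were lower and 0 higher, beside 6.44% of all genes that were lower and 2.59% that were higher. The count was 5 without WT replicate 1, when Uros and Urod joined. In that fit 2852 of all genes had an unadjusted p under 0.05 in either direction (limma). With all arrays 1284 were lower and 517 higher. Groups without overlap, lower in Tmod3 KO, were seen in the same 3 of 9 genes and in 7.1% of all genes; 0 of 9 lay higher without overlap, beside 6.14% of all genes. Among the well measured genes, which include 5 of the 9, the share with an unadjusted p under 0.05 and lower in Tmod3 KO was 26.6%, and that without overlap was 21.3%. The median log2 fold change over the 9 was -0.23, and it was -0.41 without WT replicate 1 and -0.14 without WT replicate 3. The median of the well measured genes was -0.37 and -0.18 in these fits, in that order. The sign of the median over the 9 turned when the arrays were centred otherwise. It was 0.035 on the median of the well measured genes and 0.25 on the mean of the erythroid markers described below. These centrings move every gene: the median of all genes became 0.27 and 0.48, and that of the well measured genes 0.018 and 0.23. In whole livers, fewer cells of a type and less RNA per cell cannot be told apart.

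**Figure D1:**
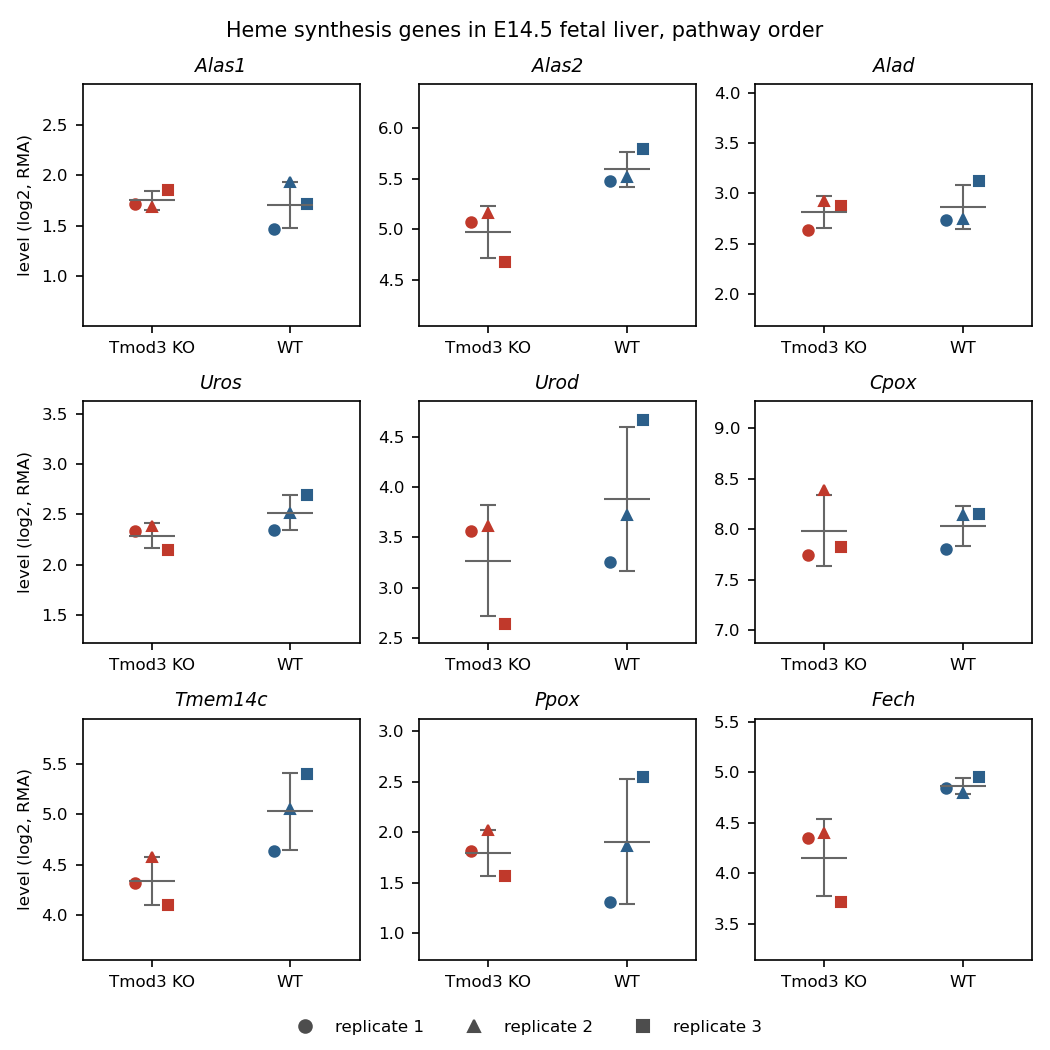
Level (log2, RMA) of each gene on each array, with Tmod3 KO left and WT right in every panel. Points are single livers, lines are the mean and its SD (n = 3), and all panels span the same number of log2 units. The groups are separate for Alas2, Tmem14c and Fech, and overlap for the other 6 genes.

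Alas1, the housekeeping form of the first enzyme (probe set 10596454), read 1.71, 1.69 and 1.86 in Tmod3 KO livers, against 1.47, 1.93 and 1.72 in WT livers. The WT arrays enclosed all the Tmod3 KO arrays, and every reading lay near the array medians, close to the floor. The log2 fold change was 0.046 ± 0.14 (SE), with a 95% interval of -0.27 to 0.36 (limma adjusted p = 0.954).

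Alas2, the erythroid form (probe set 10602372), read 5.07, 5.16 and 4.68 in Tmod3 KO livers, against 5.48, 5.51 and 5.80 in WT livers. The highest Tmod3 KO array lay below the lowest WT array. Mean levels were 4.97 ± 0.26 in Tmod3 KO livers and 5.60 ± 0.17 in WT livers (SD, n = 3 each), and the log2 fold change was -0.63 with an SE of 0.15 and a 95% interval of -0.98 to -0.27 (limma unadjusted p = 0.0036, adjusted p = 0.295). In order of p, Alas2 stood 242nd of 19938 genes. The 404 genes with a mean from 5 to 6 had a median of -0.28 and a lower quartile of -0.47.

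The difference Alas2 minus Alas1, taken within each array, was 3.36, 3.47 and 2.82 in Tmod3 KO livers, against 4.01, 3.58 and 4.08 in WT livers. All 3 Tmod3 KO values lay below all 3 WT values. The groups differed by -0.67 (exact permutation test, two-sided p = 0.1, below which 3 against 3 arrays cannot go). After the arrays were quantile normalized again the value was -0.47 and the exact permutation p was 0.3. Since Alas1 read near the floor, this difference is for the most part that of Alas2.

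The cytosolic steps follow. Alad, which joins 2 aminolevulinate molecules into porphobilinogen (probe set 10513608), read 2.64, 2.93 and 2.88 in Tmod3 KO livers, against 2.73, 2.74 and 3.12 in WT livers. The groups overlapped, and the log2 fold change of -0.051 ± 0.14 (SE, limma adjusted p = 0.95) had an interval of -0.38 to 0.28. Its sign turned to 0.12 both after renewed quantile normalization and after cyclic loess.

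Uros, which closes the ring (probe set 10568638), read 2.34, 2.39 and 2.15 in Tmod3 KO livers, against 2.34, 2.51 and 2.69 in WT livers. Only WT replicate 1 lay among the Tmod3 KO arrays. The log2 fold change was -0.23 ± 0.13 (SE), with an interval of -0.52 to 0.062 (limma adjusted p = 0.676). It was -0.14 without WT replicate 3, -0.16 without Tmod3 KO replicate 3 and -0.31 without WT replicate 1. Its sign turned to 0.035 with arrays centred on the well measured genes, where the median of all genes was 0.27.

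Urod, which trims the side chains of the ring (probe set 10515385), varied most within both groups. It read 3.56, 3.61 and 2.64 in Tmod3 KO livers, against 3.26, 3.72 and 4.66 in WT livers. Tmod3 KO replicate 3 lay well below the other 5 arrays and WT replicate 3 well above them. The log2 fold change of -0.61 ± 0.38 (SE, limma adjusted p = 0.71) was close in size to that of Alas2, but its interval ran from -1.48 to 0.25. It was -0.30 without Tmod3 KO replicate 3, -0.22 without WT replicate 3 and -0.92 without WT replicate 1.

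In the mitochondrial part, Cpox, the coproporphyrinogen oxidase of the intermembrane space (probe set 10436392), read 7.75, 8.39 and 7.82 in Tmod3 KO livers, against 7.80, 8.14 and 8.15 in WT livers. The highest of all 6 readings was that of Tmod3 KO replicate 2 and the lowest that of Tmod3 KO replicate 1. Mean levels were 7.99 ± 0.35 in Tmod3 KO livers and 8.03 ± 0.20 in WT livers (SD, n = 3 each), and the log2 fold change was -0.047 ± 0.19 (SE, limma adjusted p = 0.966). Its interval of -0.48 to 0.38 does not hold the values measured for Alas2, Tmem14c and Fech, but it overlaps the interval of each. The difference between Cpox and these genes was not tested.

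Tmem14c, which carries protoporphyrinogen into the mitochondrial matrix (probe set 10404731), read 4.32, 4.58 and 4.10 in Tmod3 KO livers, against 4.63, 5.05 and 5.40 in WT livers. The groups did not overlap, and WT replicate 1 lay only a little above Tmod3 KO replicate 2. Mean levels were 4.33 ± 0.24 in Tmod3 KO livers and 5.03 ± 0.38 in WT livers (SD, n = 3 each), with a log2 fold change of -0.69, an SE of 0.20 and an interval of -1.16 to -0.23 (limma unadjusted p = 0.00907, adjusted p = 0.37). When 1 array was left out it lay between -0.89 and -0.51, and its lowest adjusted p was 0.0706, without WT replicate 1.

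Ppox, which oxidises protoporphyrinogen (probe set 10360090), read 1.81, 2.02 and 1.56 in Tmod3 KO livers, against 1.31, 1.86 and 2.55 in WT livers. The WT arrays spread from below the array medians to above every Tmod3 KO array. The log2 fold change was -0.11 ± 0.28 (SE), with an interval of -0.76 to 0.54 (limma adjusted p = 0.945). It was -0.41 without WT replicate 1 and -0.22 without Tmod3 KO replicate 2, and its sign turned to 0.21 without WT replicate 3 and to 0.0085 without Tmod3 KO replicate 3.

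Fech, the ferrochelatase that ends the pathway (probe set 10459391), read 4.35, 4.40 and 3.72 in Tmod3 KO livers, against 4.84, 4.80 and 4.95 in WT livers. The WT arrays lay close together and above all Tmod3 KO arrays, of which replicate 3 was the lowest. Mean levels were 4.16 ± 0.38 in Tmod3 KO livers and 4.87 ± 0.079 in WT livers (SD, n = 3 each), and the log2 fold change was -0.71 with an SE of 0.18 and an interval of -1.13 to -0.29 (limma unadjusted p = 0.00433, adjusted p = 0.311). It was -0.49 without Tmod3 KO replicate 3. The 604 genes with a mean from 4 to 5 had a median of -0.28 and a lower quartile of -0.46, and both Fech and Tmem14c lay below that quartile.

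**Figure D2:**
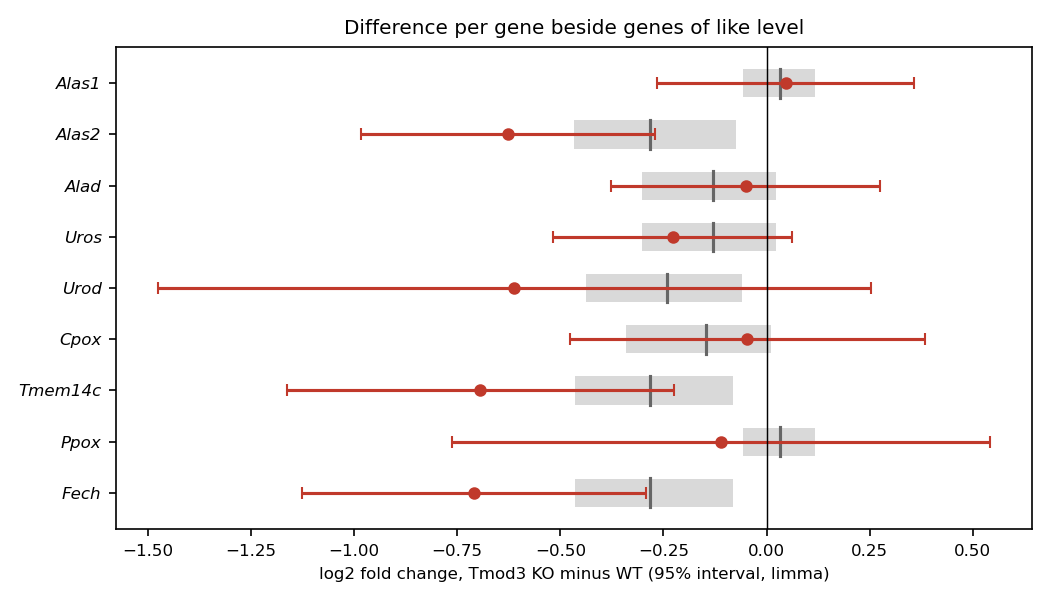
Log2 fold change, Tmod3 KO minus WT, of each gene in pathway order (points) with its 95% interval from limma (bars). Grey boxes run from the lower to the upper quartile of all genes in the same band of mean level (under 2, unit steps from 2 to 7, and 7 or more), and the dark line is their median. The intervals of Alas2, Tmem14c and Fech lie below 0, and their points lie to the left of the grey boxes, as do those of Urod and Ppox, whose intervals hold 0.

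The order of the livers within each group was shared by most of the genes and was also that of the arrays' 90th percentiles at both ends of the WT group and at the top of the Tmod3 KO group. WT replicate 3 was the highest WT array for 8 of the 9 genes, and WT replicate 1 the lowest for 8. In the Tmod3 KO group, replicate 2 was not the highest for Alas1 and was the highest for the other 8, while replicate 3 was the lowest for 6. Among the well measured genes WT replicate 3 was the highest WT array for 49.2% and WT replicate 1 the lowest for 77.3%, while Tmod3 KO replicate 2 was the highest Tmod3 KO array for 40.2% and replicate 3 the lowest for 41.0%. The mean over the 9 genes was 3.73, 3.91 and 3.49 in Tmod3 KO livers, against 3.76, 4.03 and 4.34 in WT livers. Taken over the 9 genes, the groups therefore overlapped, with Tmod3 KO replicate 2 above WT replicate 1.

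After renewed quantile normalization the median of the well measured genes was -0.060, in place of -0.25. The log2 fold changes were then -0.40 for Alas2, -0.47 for Tmem14c and -0.49 for Fech, the groups of these 3 genes still did not overlap, and no adjusted p was under 0.441 among them (limma). With each array centred on the median of the well measured genes they were -0.36, -0.43 and -0.45, and Tmem14c and Fech then had separate groups while Alas2 did not.

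Marker genes of the cells of the fetal liver were read on the same arrays. Their counts stand beside 48.4% of all genes and 80.6% of the well measured ones below 0. At an unadjusted p under 0.05, 6.44% of all genes and 26.6% of the well measured ones were lower (limma). Lower without overlap were 7.1% and 21.3%. All 17 measured erythroid markers of 20 listed had a log2 fold change below 0, 9 at an unadjusted p under 0.05 and 8 without overlap, with a median of -0.49. Those with the smallest p were Cldn13 (-0.82), Epb42, which encodes protein 4.2 of the red cell membrane (-0.76), the erythroid transcription factor gene Nfe2 (-0.56) and the adhesion molecule gene Icam4 (-0.61), and 0 of the 17 passed after adjustment (limma). The mean level over the 17 was 4.23, 4.37 and 4.08 in Tmod3 KO livers, against 4.41, 4.80 and 4.90 in WT livers. Every Tmod3 KO array lay below every WT array. Of the erythroid markers, Epor came nearest to the floor, at 1.43 to 1.90 in Tmod3 KO livers and 1.58 to 2.39 in WT livers.

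Of the 15 hepatocyte markers, 13 had a log2 fold change below 0, with a median of -0.64; Apoh (-1.24), Vtn (-0.88), Ahsg (-1.15) and Apoa1 (-0.89), which encode plasma proteins, had the smallest p. At an unadjusted p under 0.05, 6 were lower and 0 higher (limma), and 4 were lower without overlap. Among the well measured genes the shares were 26.6% lower at that p and 21.3% lower without overlap, with 80.6% below 0. Their mean level was 5.93 to 6.88 in Tmod3 KO livers, with replicate 3 lowest, against 6.86 to 7.27 in WT livers. The 13 macrophage markers ranged in mean level from 1.57 to 1.98 in Tmod3 KO livers and from 1.96 to 2.23 in WT livers, with 10 below 0, 3 of them at an unadjusted p under 0.05, and C1qa, C1qb, Csf1r, Cd163 and Mertk had readings near the array medians. The 5 measured megakaryocyte markers read 3.62 to 3.94 in Tmod3 KO livers, against 3.94 to 4.06 in WT livers, with 3 below 0. Every Tmod3 KO array lay below every WT array by a narrow gap, with 3.936 in Tmod3 KO replicate 2 and 3.939 in WT replicate 1. Ppbp (-0.72) was the 1 marker of the 5 that was lower without overlap, while Itga2b (0.051) and Vwf (0.039) lay above 0. The 6 neutrophil markers read 1.69 to 1.82 in Tmod3 KO livers, against 1.71 to 2.0 in WT livers, with 4 below 0. The 6 endothelial markers read 1.82 to 1.99 in Tmod3 KO livers, against 1.81 to 1.84 in WT livers, with 1 below 0. Near the array medians were readings of Kdr, Pecam1 and Tek among these, and of Camp, Elane and Prtn3 among the neutrophil markers. The part of these cells in the heme gene results was not tested.

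Set against the erythroid marker mean of the same array, 4 genes lay higher and 1 lower in every Tmod3 KO liver than in any WT liver. Relative to that mean, Alas2 differed by -0.15, Urod by -0.14, Tmem14c by -0.22 and Fech by -0.23, and at an unadjusted p under 0.05 none of the 9 was lower and 1 (Alas1) was higher, beside 0.291% and 56.4% of all genes (limma). Tmem14c was the 1 gene lower without overlap, beside 0.376% of all genes and 2.12% of the well measured ones. Its gap was narrow: it stood 0.208 above the marker mean in Tmod3 KO replicate 2 and 0.220 in WT replicate 1. Its unadjusted p on this scale was 0.346 (limma). Cpox stood 3.52, 4.02 and 3.74 above the marker mean in Tmod3 KO livers, against 3.39, 3.35 and 3.26 in WT livers, a difference of 0.43. All 3 Tmod3 KO values were above all 3 WT values, as they were for Alas1 (0.52), Alad (0.42) and Uros (0.25). Groups without overlap, higher in Tmod3 KO, were seen in 43.6% of all genes on this scale and in 26.4% of the well measured ones, so the 4 of 9 stand near the share over all genes. The median over all genes was 0.48 and over the well measured genes 0.23, so these values are to be read against those medians. None of the 9 passed after adjustment (limma adjusted p from 0.063 for Alas1 to 0.596 for Urod).

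**Figure D3:**
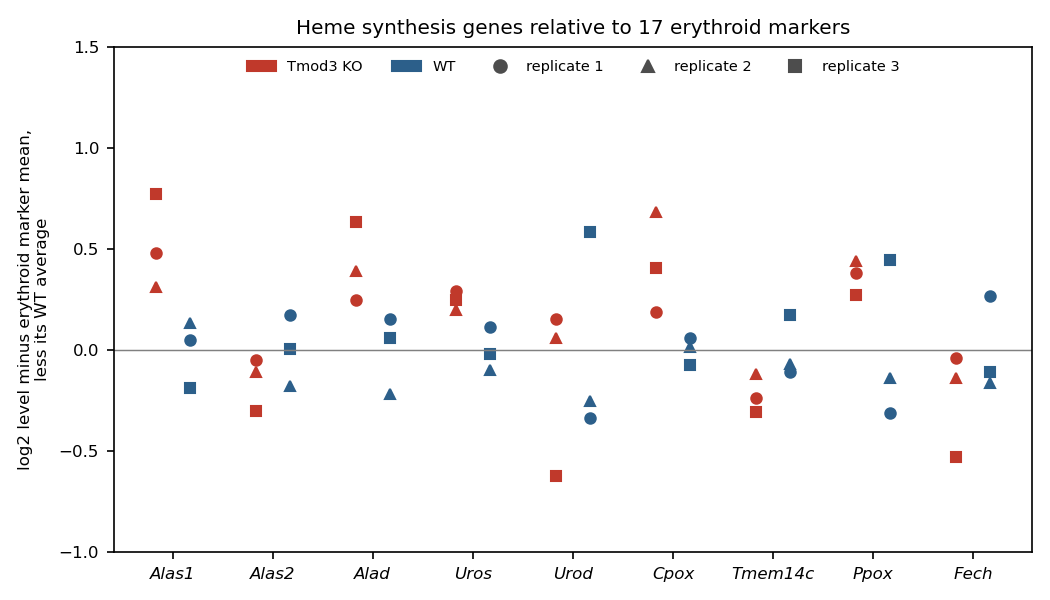
Log2 level of each gene minus the mean of the 17 erythroid markers on the same array, less the average of that value in WT livers. Tmod3 KO livers (red) stand left of WT livers (blue) for each gene. Alas1, Alad, Uros and Cpox lie higher in every Tmod3 KO liver than in any WT liver (as do 43.6% of all genes on this scale). Tmem14c lies lower by a narrow gap, and the rest overlap.

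The genes around the pathway were described from lists chosen with earlier results known, and 0 genes of any list passed after adjustment over all genes (limma). Their counts stand beside the 6.44% of all genes that were lower and the 2.59% that were higher at an unadjusted p under 0.05, and the 26.6% of the well measured genes that were lower, and their medians beside 0.0057 for all genes and -0.25 for the well measured ones. For the supply of glycine and succinyl-CoA, 2 of 10 genes had an unadjusted p under 0.05 and were lower, 0 were higher, and the median was -0.11. Slc6a9, a glycine transporter of the plasma membrane, read 1.65, 1.91 and 1.94 in Tmod3 KO livers, against 2.22, 2.35 and 2.92 in WT livers, a log2 fold change of -0.66 without overlap. The Tmod3 KO readings of Slc6a9 lay close to the floor, which limits this value. Sucla2, a subunit of succinyl-CoA synthetase, had -0.38. Dld, a shared subunit of mitochondrial dehydrogenases, had -0.22 and Shmt2, the mitochondrial serine hydroxymethyltransferase, had 0.17, neither with an unadjusted p under 0.05.

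Among the genes of ALAS control and heme sensing, 4 of 13 were lower and 0 higher at an unadjusted p under 0.05, with a median of -0.18. Eif2ak1, the kinase HRI that slows translation in erythroid cells when heme is short, read 5.43, 5.46 and 4.87 in Tmod3 KO livers, against 5.83, 6.15 and 6.09 in WT livers. Its log2 fold change was -0.77 with an SE of 0.18 (limma adjusted p = 0.261), and the groups did not overlap. Clpx, the mitochondrial unfoldase that acts on ALAS, had -0.33, the heme-binding protein gene Hebp1 -0.33 and the sorting nexin gene Snx3, which serves recycling of the transferrin receptor, -0.29.

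Iron-sulfur cluster assembly, on which ferrochelatase depends for its cofactor, had 4 of 13 measured genes lower and 0 higher at an unadjusted p under 0.05, with a median of -0.29. Isca1 read 2.32, 2.60 and 2.44 in Tmod3 KO livers, against 3.05, 2.96 and 2.95 in WT livers, a log2 fold change of -0.54. The scaffold gene Iscu had -0.59, Isca2 -0.63 and the glutaredoxin gene Glrx5 -0.56. None of these 4, which were named for having the smallest p in the list, had overlapping groups. Lower without overlap were 7.1% of all genes and 21.3% of the well measured ones. Other members of the list went the other way as measured, up to 0.30.

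Transport of heme, of its precursors and of mitochondrial iron had 2 of 16 measured genes lower and 0 higher at an unadjusted p under 0.05, with a median of -0.031. Slc25a37, which encodes mitoferrin 1, the iron importer of erythroid mitochondria, read 6.18, 6.42 and 5.79 in Tmod3 KO livers, against 6.51, 6.60 and 6.77 in WT livers, a log2 fold change of -0.50 without overlap. Fam210b had -0.62 with overlapping groups. The transporter genes Abcb10 (-0.20) and Abcb8 (0.20) did not reach an unadjusted p under 0.05.

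In heme breakdown and scavenging, 1 of 8 genes was lower and 0 higher at an unadjusted p under 0.05, with a median of -0.095. Blvra, which encodes biliverdin reductase A, read 1.55, 1.79 and 1.58 in Tmod3 KO livers, against 1.98, 2.02 and 2.29 in WT livers, a log2 fold change of -0.45. The Tmod3 KO readings of Blvra lay close to the floor, which limits this value. Blvrb had -0.30 and the haptoglobin gene Hp -0.14, both with overlap, and Cd163 had 0.11 with all readings below the array medians. The genes of heme a and heme c assembly, Hccs (-0.33), Cox15 (-0.24) and Cox10 (0.080), did not reach an unadjusted p under 0.05.

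**Figure D4:**
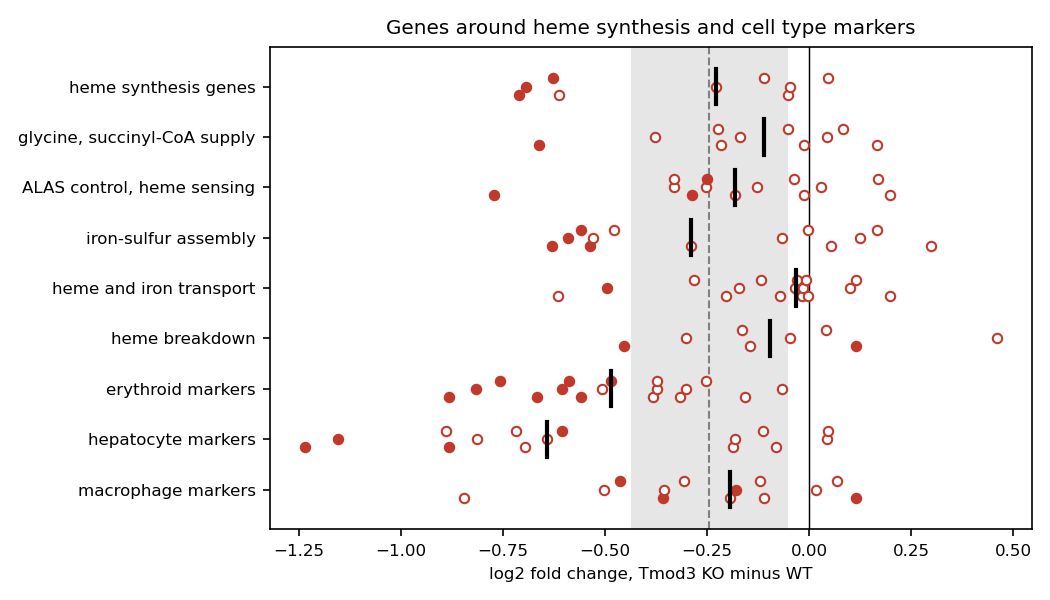
Log2 fold change, Tmod3 KO minus WT, of each gene by list, with filled points for genes whose groups do not overlap and black bars for list medians. The grey band runs from the lower to the upper quartile (-0.43 to -0.054) of the 2545 well measured genes, and the dashed line is their median of -0.25. Alas2, Tmem14c and Fech are the 3 filled points of the top row.

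Among the 2544 other well measured genes, those whose levels over the 6 arrays were most like Alas2 were Bud31 (Pearson r = 0.989), Slc38a4 (0.986), Mgst3 (0.981), Ifi30 (0.980) and Acat1 (0.980). These points share their arrays, and the group difference enters each r. Fech came 9th (0.977), Tmem14c 82nd (0.939), Urod 361st (0.838) and Cpox 1607th (0.364) in the same order. With each group's mean taken out, r with Alas2 was 0.932 for Urod, 0.915 for Fech, 0.820 for Tmem14c and 0.561 for Cpox.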

How the data were processed

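Total RNA (6 ug per liver, Trizol extraction, biotin labelling, per the labels' protocols) of 6 fetal livers was measured on 1 array each. The deposited values, read here as log2 from their range since no source states the base, were made by the authors with RMA (version not stated), per the submitters' processing notes. Arrays have no read depth, and their number limits the precision. Of 28853 probe sets, 21789 had exactly 1 gene symbol; the one with the highest mean was kept per gene, giving 19938 genes. Groups were tested by limma (version 3.58.1, R version 4.3.3; lmFit, eBayes, no covariates, two-sided), adjusted by Benjamini-Hochberg over all genes. On simulated data for this comparison with 19938 genes, 74.6% of genes with a true log2 difference of 1 were called. Every member differed by less than 1, so this share does not say how readily the members could be called. The members and lists were chosen with earlier results of these data known. All 9 members were named, in each pathway list and the erythroid and hepatocyte lists up to 4 genes of smallest p, and the 5 genes most like Alas2; other names were chosen after their values were seen. Alternatives were cyclic loess, renewed quantile normalization, 2 centrings, each array left out in turn, the replicate block, array weights, intensity trend with robust fitting, averaged probe sets, and genes with a mean of at least 3 only. Members of the fixed lists without a probe set of their own were not analysed here.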

Additional observations from a re-analysis of the deposited data

How the results depend on the processing

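No gene of the 9 passed an adjusted p of 0.05 under any of the alternatives run (limma), and Alas2, Uros, Urod, Tmem14c and Fech kept their direction with each array left out. The labels do not say whether replicate numbers pair the livers. Deviations of same-numbered arrays correlated at 0.107, 0.057 and -0.105, and those of other pairs at -0.191 to 0.186, which cannot settle it. With the replicate block the median over the 9 was -0.23 and the Alas2 minus Alas1 value was -0.67. At an unadjusted p under 0.05, 3 members were still lower (limma). In that fit 0 genes in all passed, against 3 without the block, and 1787 had an unadjusted p under 0.05 (limma). The count of all genes that passed was 6 after renewed quantile normalization, 8 with cyclic loess, 15 among genes with a mean of at least 3, 11 with array weights, 111 when centred on those genes and 4630 when centred on the erythroid marker mean, which shifts the median of all genes to 0.48. Leaving out 1 array gave 0 to 95 genes, 3 to 5 members lower at an unadjusted p under 0.05, a median of -0.41 to -0.14 and an Alas2 minus Alas1 value of -0.83 to -0.47. The median over the members turned to 0.035 when arrays were centred on genes with a mean of at least 3 and to 0.25 when centred on the erythroid markers, when 0 members were lower at an unadjusted p under 0.05; among the 5 members with a mean of at least 3 it was -0.63. With the first of these centrings Alad read 0.21, Uros 0.035, Cpox 0.22 and Ppox 0.15, and with the second 0.42, 0.25, 0.43 and 0.37. Over all genes the median was 0.27 with the first and 0.48 with the second. Alad was 0.12 with either normalization, and Alas1 was -0.055 with array weights. With 1 array left out, Alas1 lay between -0.072 and 0.16 (-0.0062 without Tmod3 KO replicate 3), Alad between -0.12 and 0.076, Cpox between -0.25 and 0.072 and Ppox between -0.41 and 0.21. Readings near the array medians, as for Alas1 and Ppox, limit what could be seen of those genes.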

Other observations

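Hmox1, the inducible heme oxygenase that opens the heme ring, was chosen for naming after its values were seen. It read 4.65, 4.79 and 2.94 in Tmod3 KO livers, against 3.61, 3.73 and 3.65 in WT livers. Tmod3 KO replicates 1 and 2 lay above all WT arrays and replicate 3 below them, while the WT arrays lay close together (log2 fold change 0.46 with an SE of 0.43, limma adjusted p = 0.817). Bach1, which encodes a heme-sensing repressor of Hmox1, read 2.11, 1.84 and 2.01 in Tmod3 KO livers, against 1.88, 1.77 and 1.81 in WT livers, with overlapping groups (0.17, limma adjusted p = 0.732).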
